A study of Bos taurus with 12 samples.

Results

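The major histocompatibility (MHC) region of cattle chromosome 23 was described from the CpG sites of the deposited methylation table at positions 25000001 to 29000001 of the bosTau8 genome build, counted from 1. These coordinates alone chose the sites, and no measured value was used. The region held 1749 tested sites, against 17942 sites on the rest of chromosome 23 and 838705 sites in all. A site is a cytosine of a CpG on a single strand. The 1749 sites lay in 1279 CpGs, of which 470 had both strands tested.

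The MHC, called BoLA in cattle, is a gene-dense stretch of the genome that is known for its classical class I and class II genes. Their products bind peptides inside the cell and present them to T cells, and the genes that encode them are among the most variable between individuals. Class III genes lie beside them and encode complement components, cytokines and many proteins with other tasks. Between the class I genes lies a set of conserved genes, called framework genes, that do not present antigen. In cattle, part of the class II genes and the genes for peptide transport and the immunoproteasome lie apart from the rest, nearer the start of the chromosome. DNA methylation is the addition of a methyl group to a cytosine, and CpG-dense stretches at gene starts are usually unmethylated.

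Reduced representation bisulfite sequencing (RRBS), which reads methylation in CpG-rich fragments released by a restriction enzyme, had been applied to DNA of dermal fibroblasts. Skin cultures of 6 Holstein heifers were made at 5 months of age (6 young cultures) and again from the same animals at 16 months (6 old cultures). All 12 cultures were unstimulated and at passage 6, with no genetic change or agent in either group, so the comparison was paired by animal. Each animal gave 1 culture per age, and sampling date and age of the animal cannot be told apart. The methylation ratio, given here as a percentage, is the share of reads that kept a cytosine at the site. Cell identity was not checked, since these files hold no transcript levels.

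The median coverage of the region's sites was between 13 and 14 reads in young cultures and between 10 and 17 reads in old cultures, so 1 read moved a typical ratio by several percentage points. No culture had fewer than 5 reads at any site, and 403 sites (23.04%) were read at least 10 times in each culture. The old culture of animal 2 had the lowest median coverage, 10 reads, and the old culture of animal 1 the highest, and the contrast and the site that changed most without animal 2 are also given without it. At 287 sites (16.4%) all 12 cultures had an even number of reads, a property the table also shows elsewhere, and results were repeated without such sites. By the methods, overlapping mates of a read pair were each counted, so fewer molecules than reads may stand behind a ratio. The part of this in the even counts was not tested.

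The region was sparsely methylated. The mean level over its sites was 11.1%, against 18.3% on the rest of chromosome 23 and 24.0% over all tested sites. Averaged over the ages, the region minus the rest of the chromosome was -7.18 percentage points (SD 0.211, n = 6 animals). The region was lower in 6 of 6 animals (P = 0.031 by an exact permutation of signs over the animals, two-sided, the smallest value that 6 animals allow). Together with the 7 age comparisons given below this made 8 tests, and after Benjamini-Hochberg adjustment over them P was 0.0625. Levels were below 10% at 1424 sites (81.4%), against 70.6% on the rest of the chromosome. Among these, 525 sites (30.02% of the region) were at 0 in all 12 cultures. Levels between 10 and 90% were found at 271 sites (15.5%, against 24.1%), and levels above 90% at 54 sites (3.09%, against 5.35%).

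Chromosome 23 was divided into 14 windows of 4 Mb, of which the region is one. Its mean level was the 5th lowest of the 14 and its number of sites the 7th highest. The neighbouring windows at 21 to 25 Mb and 29 to 33 Mb had mean levels of 10.003% and 6.52%, so the region did not stand out from its surroundings by its level. The end of the chromosome was the most methylated, with 27.5% between 49 and 53 Mb.

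**Figure D1:**
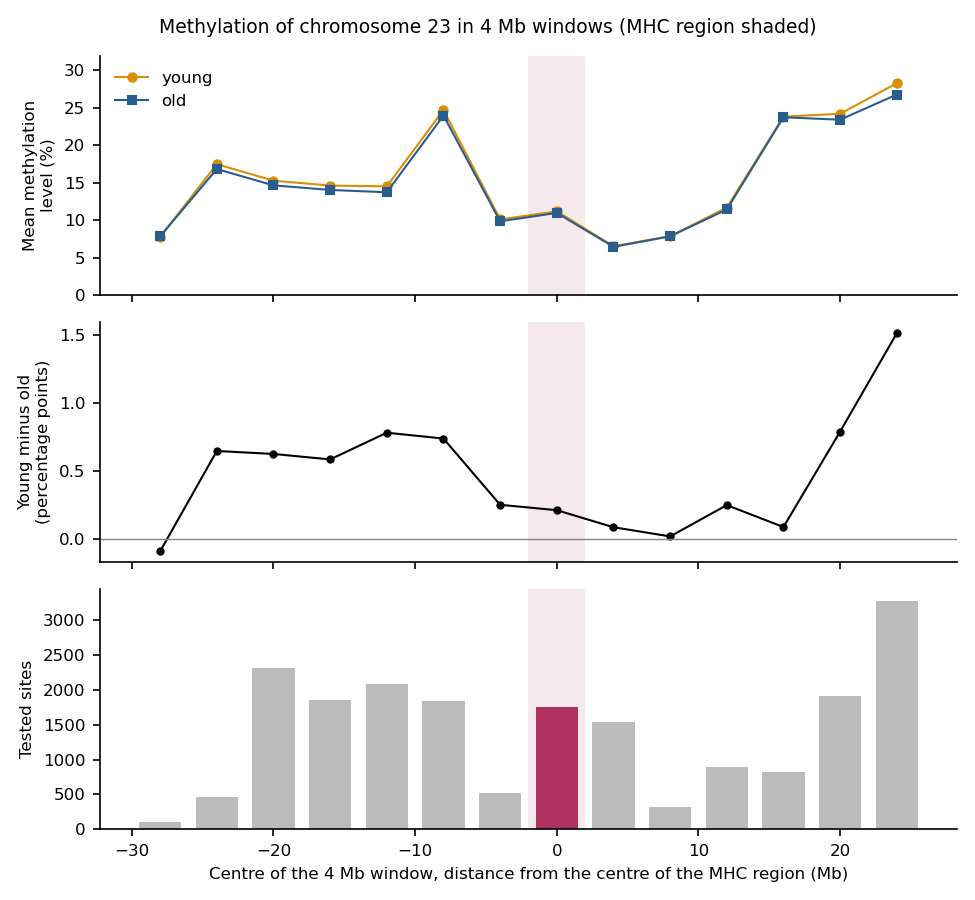
Mean methylation level per age (top, in percent), young minus old difference (middle, in percentage points) and number of tested sites (bottom) in 14 windows of 4 Mb along chromosome 23, placed by the distance of the window's centre from the centre of the MHC region in Mb. The shaded MHC region had 11.2% in young and 11.0% in old cultures, and the largest difference, 1.51 points, lay in the last window.

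Tested sites were spread unevenly over the region. Of 16 windows of 250 kb, 3 held no site. The window at 25 to 25.25 Mb had the lowest mean level, 1.78% over 202 sites, and also the lowest spread, with a mean SD between animals of 1.45 points. From 25.25 to 26.75 Mb there were only 18 sites, and the longest stretch without a site ran for 697 kb, from 25861674 to 26558885. The window after it, at 26.50 to 26.75 Mb, had the highest level, 71.3%, and the highest SD between animals, 13.7 points, but rested on 5 sites. The window at 27.25 to 27.50 Mb was the densest, with 427 sites and a level of 8.66%.

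Sites at most 100 bp apart were joined into 239 loci, a choice of distance that the study did not make. A locus held a median of 4 sites and at most 51. By their mean level, 139 loci lay below 10%, 69 above 50% and 31 between these limits. The loci above 50% include partly methylated ones, such as that at 26859746 to 26859753 with 63.1%.

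Genes of the authors' annotation served as landmarks, and the stretches between them were chosen after their positions had been seen. The stretch from the PRRT1 site to the PRRC2A site, which spans the class III genes named here, held 550 sites over 446 kb with a mean level of 10.03%. From PRRC2A to POU5F1 there were 145 sites over 285 kb with a mean level of 14.8%. In the order of the RefSeq gene table of another assembly, ARS-UCD2.0, 27 entries lie between this pair of genes. Among them are the cytokine genes TNF, LTA and LTB, the class I entry BoLA and the class I-like genes MIC1 and MIC2. From POU5F1 to GABBR1, the stretch of framework genes, 743 sites over 1014 kb had a mean level of 11.0%. Before PRRT1 lay 304 sites over 2040 kb with a mean level of 10.3%, and beyond GABBR1 only 7 sites, at 71.9%.

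**Figure D2:**
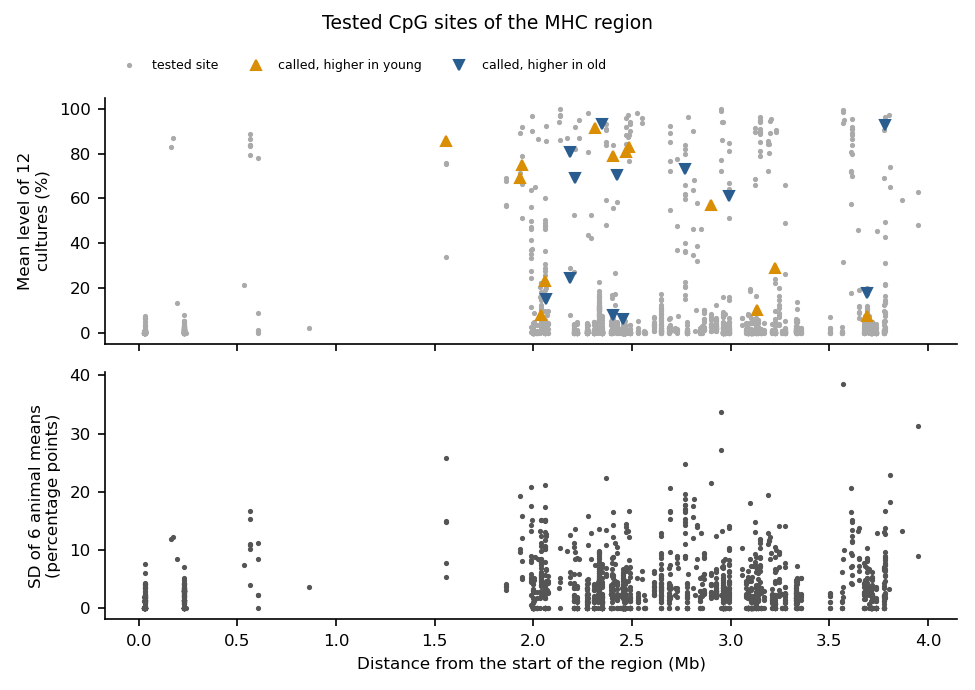
Mean methylation level of the 12 cultures (top, in percent) and SD of the 6 animal means (bottom, in percentage points) at each of the 1749 tested sites, by distance from the start of the region in Mb. Triangles mark the 25 sites called between ages, 13 higher in young (pointing up) and 12 higher in old cultures (pointing down), and 18 sites lie between 25.25 and 26.75 Mb.

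The age comparison asked whether methylation of an animal's fibroblasts differed between 5 and 16 months. The mean level of the region was 11.2% ± 0.242 in young cultures and 11.0% ± 0.407 in old ones (SD, n = 6 each). Young cultures ran from 10.9 to 11.5% and old cultures from 10.5 to 11.7%, so the ages overlapped throughout. The paired difference, young minus old, was -0.116, 0.173, 0.509, 0.630, -0.250 and 0.329 points in animals 1 to 6. Young cultures were higher in 4 of 6 animals, with a mean difference of 0.212 points (SD 0.346). The mean difference was not told apart from 0 (exact sign-flip permutation test, P = 0.219, adjusted P = 0.219).

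On the rest of chromosome 23, the mean difference was 0.718 points (SD 0.553), with young cultures higher in 5 of 6 animals (exact permutation test, P = 0.0625, adjusted P = 0.10). The difference was smaller in the region than on the rest of the chromosome in 6 of 6 animals, with values of region minus rest from -1.35 to -0.137 points. The mean of region minus rest was -0.505 points (SD 0.443, exact sign-flip permutation test P = 0.031, adjusted P = 0.0625). Without animal 2, which had the largest gap, it was -0.336 points (P = 0.0625, the smallest value the exact test allows with 5 animals). The same order was seen at sites with a mean level between 10 and 90%. There the region went from 45.1% ± 1.43 in young to 43.9% ± 2.07 in old cultures, a difference of 1.23 points (SD 1.59, exact P = 0.125), and the rest of the chromosome differed by 2.69 points (SD 1.74, 6 of 6 animals, exact P = 0.031). Region minus rest was -1.46 points there (SD 0.888, 6 of 6 animals, exact P = 0.031, adjusted P = 0.0625).

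How far this contrast holds depends on what the region is set against. With all autosomal sites outside the region in place of the chromosome, region minus rest was -0.228 points (exact P = 0.312). With at least 10 reads in every culture it was -0.376 points (exact P = 0.125). The windows at 45 to 53 Mb had differences of 0.791 and 1.51 points, and the contrast was -0.289 points without them (exact P = 0.031), a setting chosen after the windows were seen. In the windows on either side of the region, at 21 to 25 Mb and 29 to 33 Mb, the differences were 0.252 and 0.087 points, and the region's own was the 5th lowest of the 14 windows.

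**Figure D3:**
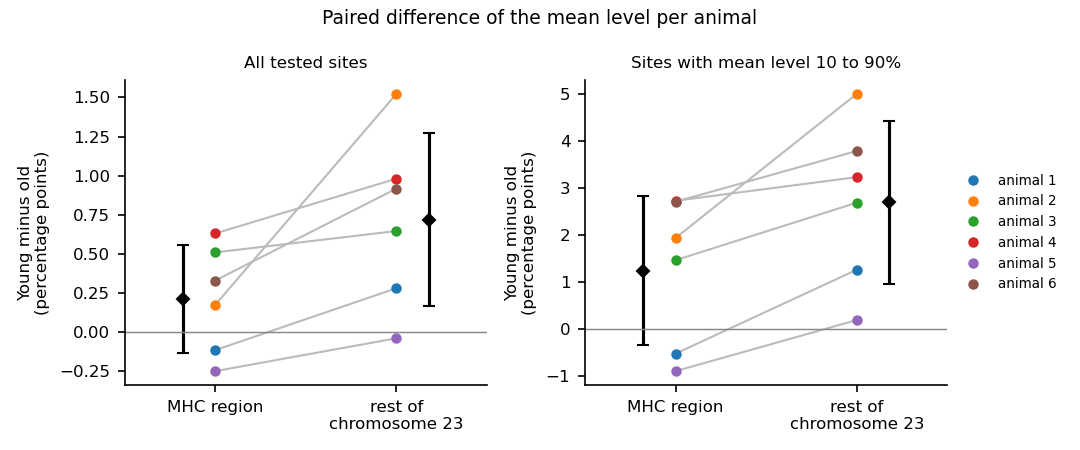
Young minus old difference of the mean methylation level (percentage points) of each of the 6 animals in the MHC region and on the rest of chromosome 23, over all tested sites (left) and over sites with a mean level of 10 to 90% (right). Grey lines join the values of an animal, and diamonds with bars are means with SD. In all 6 animals the region lies below the rest of the chromosome, with means of 0.212 and 0.718 points on the left.

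Differentially methylated sites (DMCs) were those where the methods' paired t-test gave an unadjusted P below 0.05 and the ages differed by at least 10 points, the smallest difference to which the deposited p-values apply. By this rule 25 of the 1749 sites were DMCs, 1.43% of the region, against 2.00% of the rest of chromosome 23 and 1.68% of all tested sites. The region's share was thus not above the background, and the difference of the shares was not tested. Among sites with a mean level between 10 and 90%, the shares were 6.64% (18 of 271 sites) in the region, 7.33% on the rest of the chromosome and 4.55% over all sites. With P adjusted across the whole table (Benjamini-Hochberg), 0 sites of the region passed 0.05, and the smallest adjusted value was 0.889. At an unadjusted P below 0.05 with no minimum difference, there were 36 sites by the methods' paired t-test (2.06% of the region, against 2.87% of all sites), 41 by limma (2.34%, against 3.39%) and 34 by the quasi-binomial model (1.94%, against 2.36%). By each of these tools 0 passed adjustment. The 25 sites thus rest on an unadjusted P and on a minimum difference that was read from the deposited p-values and is not part of the stated methods, and they do not hold up against multiple testing. Without animal 4 or without animal 6, 15 sites were called.

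The DMCs of the region were split about evenly between the ages. Methylation was higher in young cultures at 13 sites (0.743% of the region, against 1.47% of the rest of the chromosome and 1.12% of all tested sites) and higher in old cultures at 12 sites (0.686%, against 0.524 and 0.567%). That is 52.0% in the young direction, against 73.7% of 358 DMCs on the rest of chromosome 23 and 66.3% over all DMCs. The median size of the difference was 15 points in the region, 20.6 points on the rest of the chromosome and 17.8 points over all DMCs. All 6 animals moved the same way at 8 of the 25 sites, 0.457% of the region against 0.864% of the rest of the chromosome and 0.722% of all tested sites, and these are the ones with an exact sign-flip P of 0.031. The 6 young and 6 old values did not overlap at 1 site, 0.0572% of the region against 0.106% of the rest of the chromosome and 0.112% of all sites.

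All 25 sites stood in the authors' list of positions with P below 0.05, which gives genes and CpG islands. Of these, 17 carried 17 gene names and 8 had no gene. By that list 5 sites lay in a promoter, 9 in an exon, 7 in an intron and 3 in a CpG island, where a site can have several classes. Sites outside the list carry no annotation, so genes without a listed site may still have been tested. All 17 genes belonged to either of 2 lists used for grouping: 11 of the 49 class III and flanking genes and 6 of the 41 framework genes. None of the 27 class I and class II genes had a listed site. As a background, 2130 of 21666 protein-coding gene symbols of the RefSeq table (9.83%) had a listed site anywhere in the genome. Counting members found among those symbols, the shares were 23.9% for class III (11 of 46), 15.8% for framework genes (6 of 38) and 0 of 19 for class I and class II genes. The lists were chosen with the study's gene tables and earlier results known, so it is no finding that all 17 genes fall in them. How many sites were tested per gene is not known here either, so these shares are a description and no test of enrichment.

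In the class III group, 12 sites differed between ages, 5 higher in young and 7 higher in old cultures. The stretch from PRRT1 to PRRC2A, in which they lie, held 14 DMCs among 550 tested sites. That is 2.55%, against 2.00% of the rest of chromosome 23 and 1.68% of all sites. The stretch begins and ends at a DMC, so its share is raised by the choice of its ends and is only a description. The complement gene C4A, whose product is a central component of the complement cascade, had sites in its introns at positions 27184052 and 27184169 (plus strand). At 27184052, young cultures had 6, 10.5 and 30% as lowest, median and highest ratio, and old cultures 23, 33.5 and 50%. The difference was 20.8 points (SD 14.7), with old cultures higher in 6 of 6 animals (exact sign-flip permutation test, P = 0.031). Old cultures were thus above young ones in every animal, although the lowest old culture lay below the highest young one. At 27184169 the ratios were 47, 75 and 94% in young and 80, 90 and 100% in old cultures, higher in old cultures by 21.3 points (SD 12.1), again in 6 of 6 animals (exact P = 0.031). All 3 other tested sites within 500 bp of each of these positions differed in the same direction, with a mean young minus old difference of -14.6 and -14.4 points, and these neighbours include the other named site.

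DXO, which encodes an enzyme that removes faulty caps from messenger RNA, had the largest difference among the 25 DMCs, in an exon at position 27209651 (plus strand). A site at 27993469 (plus strand) differed more, by 33.8 points, but with an SD of 33.7 points and young cultures higher in only 4 of 6 animals it was not called (exact sign-flip permutation P = 0.125), and it was singled out after its values were seen. At the DXO site, ratios were 33, 53.5 and 75% as lowest, median and highest in young cultures. They were 75, 82.5 and 100% in old cultures, touching at 75%. Old cultures were higher by 29.8 points (SD 17.7) in 6 of 6 animals (exact sign-flip permutation test, P = 0.031). The 2 other tested sites within 500 bp had a mean level of 87.0% and a mean young minus old difference of -1.75 points.

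ABHD16A, which encodes a lipid hydrolase, had a site in an intron at position 27426095 (minus strand). It was the only DMC of the region with 10 or more reads throughout and all 6 animals alike, with 12 to 32 reads. Ratios were 40, 60.5 and 82% in young and 75, 79 and 89% in old cultures, a young minus old difference of -20.17 points (SD 18.7) (exact permutation test, P = 0.031). Young cultures were widely spread and old cultures close together. The single other tested site within 500 bp was higher in young cultures, by 21.5 points.

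DDAH2, a relative of the enzymes that break down methylated arginine, had sites that moved in opposite directions. At position 27401566 (plus strand), in an intron, ratios were 67, 94 and 100% in young and 33, 73.5 and 88% in old cultures. Young cultures were higher by 21.7 points (SD 8.04) in 6 of 6 animals (exact permutation test, P = 0.031). At position 27401038 (minus strand), in an exon and CpG island, 5 young cultures were at 0 and that of animal 1 at 18%, while old cultures ran from 7 to 25%. Old cultures were higher there by 10.3 points in 5 of 6 animals (exact P = 0.0625). The opposite strand of this CpG differed by 2.33 points towards young cultures, and the merged CpG had a young minus old difference of -3.24 points (exact P = 0.406).

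The other 6 class III sites had the same direction in 5 of 6 animals (exact sign-flip permutation P = 0.0625 at each), with a tie in the remaining animal at PRRT1 and at GPANK1. PRRT1, which encodes a membrane protein associated with glutamate receptors, had an exon site in a CpG island at 27039530 (minus strand), with 0 to 25% in young cultures and 0 in all old cultures except animal 2, at 6%. A site at 27057032 (plus strand) in the promoter of ATF6B, an endoplasmic reticulum stress factor, and in an exon of FKBPL went from 30.8% ± 17.6 in young to 15.8% ± 15.1 in old cultures. An intron site of ATF6B at 27064212 (plus strand) went the other way, from 8.67% ± 7.94 to 22.0% ± 7.48. The site at 27452601 (plus strand), in the promoters of GPANK1 and of CSNK2B, the regulatory subunit of casein kinase II, was at 0 in all 6 young cultures and at 12.2% ± 9.54 in old cultures. It had 6 to 11 reads per culture, so 1 read is a large part of any such value.

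BAG6, a chaperone cofactor in protein quality control, and its neighbour PRRC2A, a large proline-rich protein, had exon sites at 60% or more in every culture. BAG6 at 27471574 (plus strand) had 87.0% ± 16.9 in young cultures and 74.3% ± 9.79 in old ones. Its mean coverage of 7.25 reads was the lowest of the 25 sites. PRRC2A at 27485217 (plus strand) had 93.2% ± 7.81 in young and 72.5% ± 15.4 in old cultures. The opposite strand of this CpG differed in the same direction, by 12.7 points. Merging them gave 17.4 points, with 1 direction in all 6 animals (exact permutation test, P = 0.031).

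In the framework group, 5 sites differed between ages, 2 higher in young and 3 higher in old cultures. DDR1, which encodes a receptor tyrosine kinase for collagen, had a promoter site at position 27991504 (plus strand). Ratios were 14, 52.5 and 62% as lowest, median and highest in young and 60, 76 and 90% in old cultures. Old cultures were higher by 28.3 points (SD 9.09) in 6 of 6 animals (exact sign-flip permutation test, P = 0.031). All 5 other tested sites within 500 bp were higher in old cultures as well, with a mean young minus old difference of -8.87 points. Coverage at the DDR1 site was low, with 5 to 13 reads per culture.

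PPP1R18, whose product binds actin and protein phosphatase 1, had an intron site at 28131663 (plus strand) with 7, 17 and 24% in young cultures. Old cultures had 0, 0 and 21%, the highest of them animal 2. Young cultures were higher by 11.7 points (SD 6.53) in 6 of 6 animals (exact permutation test, P = 0.031). The single other tested site within 500 bp went the other way, with a young minus old difference of -7.5 points. A site at 28225960 (minus strand) lay in the promoter of PRR3 and an exon of GNL1, a GTP-binding protein gene. It had 40.2% ± 7.39 in young and 17.3% ± 18.1 in old cultures, higher in young in 5 of 6 animals with 1 tie (exact permutation P = 0.0625). Of its 5 tested neighbours within 500 bp, 2 shared its direction, and their mean young minus old difference was -0.633 points. POU5F1, which encodes the pluripotency factor OCT4, had a site at 27770439 (plus strand) in its promoter and an intron, with 67.2% ± 20.6 in young and 79.0% ± 14.1 in old cultures (5 of 6 animals, exact permutation P = 0.0625). GABBR1, a subunit of the GABA-B receptor, had an exon site at 28784488 (minus strand) with 86.8% ± 10.6 in young cultures. Old cultures were at 100% there in all animals but animal 6, at 90% (4 of 6 animals, exact permutation P = 0.125).

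The 8 sites without a gene were split 6 to 2, with 6 higher in young cultures. At position 26940626 (plus strand), ratios were 79, 87 and 92% as lowest, median and highest in young and 50, 67 and 71% in old cultures. This was the site whose groups did not overlap, with a difference of 22.7 points (SD 8.89, 6 of 6 animals, exact sign-flip permutation test, P = 0.031) at a mean coverage of 8.67 reads. Its 4 tested neighbours within 500 bp did not share this, with a mean difference of -1.62 points. Among the DMCs, the largest difference towards young cultures, 24.3 points, was at 27901127 (minus strand) in a CpG island (5 of 6 animals, exact permutation P = 0.0625). The 13 other tested sites within 500 bp of it had a mean level of 3.82%. Their mean young minus old difference was -1.64 points, and 3 of them shared its direction. Positions 28690933 and 28690979 (plus strand), less than 100 bp apart, differed in opposite directions, by 10.8 points towards young and 11.8 points towards old cultures. Without animal 2, the difference at 28690933 was 7.2 points. At 28690979 the opposite strand differed by 11.2 points towards young cultures, and the merged CpG had a young minus old difference of -1.22 points (exact permutation P = 0.781). This was the only locus with more than 1 DMC.

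Agreement between neighbouring measurements was limited. The opposite strand was tested at 3 of the 25 DMCs, and it differed in the same direction at 1 and was called at 0 of them. Of the 403 sites with 10 or more reads throughout, 3 were DMCs (0.744%, against 1.08% on the rest of the chromosome and 1.06% over all sites at that coverage). Even coverage throughout was found at 7 of the 25. Limma with the animal as a block gave an unadjusted P below 0.05 at 25 of them, the quasi-binomial model on reads at 13 and the exact sign-flip test at 8. Leaving the pairing out, an exact permutation over every equal parting of the 12 cultures gave P below 0.05 at 15.

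**Figure D4:**
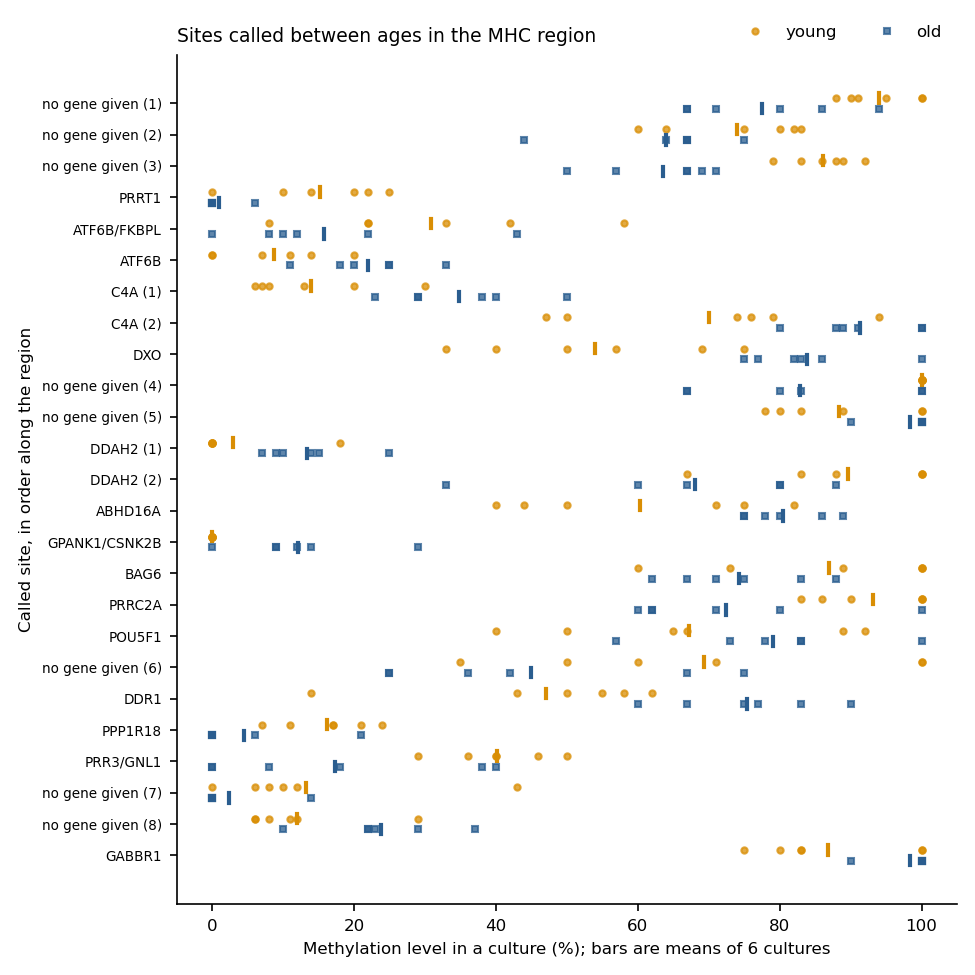
Methylation level (percent) of each culture at the 25 sites called between ages, in their order along the region, with young cultures as circles, old cultures as squares and vertical bars for the means of 6. Young and old values overlap or touch at all sites but the third from the top, which has no gene, and the differences run from -29.8 points at DXO to 24.3 points.

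Genes of antigen presentation outside the region were read from the same authors' list, and 4 of 31 had a listed site (12.9%, against 9.83% of RefSeq protein-coding symbols). These genes too were chosen with earlier results known. On chromosome 23, apart from the region, a site at 7126198 in the promoter and exon annotations of PSMB9 and TAP1, an immunoproteasome subunit and a peptide transporter, had 1.83% ± 4.49 in young and 13.7% ± 8.55 in old cultures. An exon site of the immunoproteasome subunit PSMB8 at 7113514 had 80.7% ± 14.7 in young and 60.7% ± 13.1 in old cultures. Each had its direction in 5 of 6 animals (exact permutation P = 0.0625). NFYC, a subunit of a factor that binds class II promoters, had intron sites on chromosome 3 at 106056787 and 106056820, higher in young cultures by 35 and 33.8 points in 6 of 6 animals (exact permutation P = 0.031 at each).

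Variation between animals was measured next. For every pair of a young and an old culture, the distance was taken as the mean absolute difference of their ratios over the sites. In the region, the young and old culture of the same animal were 4.57 points apart on average (4.38 to 4.83 over 6 animals). Cultures of different animals were 4.82 points apart (4.54 to 5.18 over 30 pairs). The cultures of an animal were thus closer by 0.247 points, or 5.13% of the distance between animals. An exact permutation test over all 720 pairings of young with old cultures gave P = 0.00278 (two-sided, adjusted P = 0.00648 over 7 tests of this kind). The young culture of 4 of 6 animals was closest to its own old culture.

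At sites with a mean level between 10 and 90%, the likeness was plainer. The same animal's cultures were 15.3 points apart and those of different animals 16.9 points, closer by 1.57 points or 9.30% (exact permutation P = 0.00278, adjusted P = 0.00648). The young cultures of 5 of 6 animals were closest to their own old culture. On the rest of the chromosome the same comparison gave 0.350 points, or 2.05% (exact permutation P = 0.00833, adjusted P = 0.0113), with 2 of 6 animals closest to their own. The region exceeded the rest of the chromosome by 1.22 points at these sites (exact permutation P = 0.00972, adjusted P = 0.0113). Over all levels it exceeded it by 0.155 points (two-sided exact permutation P = 0.0569, one-sided P = 0.0333), and all autosomal sites outside the region by 0.0943 points (two-sided P = 0.264). The excess over the chromosome thus passed P below 0.05 at sites of partial methylation and not over all sites. At sites of partial methylation the region was not set against the autosomes or against other windows. Over all levels, autosomal sites outside the region also showed likeness, by 0.153 points (exact permutation P = 0.00139).

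The spread between animals depended on the level of the sites. The SD of the 6 animal means averaged 3.43 points over the sites of the region and 4.17 points on the rest of the chromosome. At sites between 10 and 90% the averages were 10.7 points in the region, 10.05 points on the rest of the chromosome and 8.34 points over all tested sites. An SD above 20 points was found at 13 sites (0.743%, against 0.791% on the rest of the chromosome and 0.634% over all sites), and at sites between 10 and 90% the shares were 4.80, 3.29 and 1.93%. The variance over the 12 cultures, divided by the variance that read counting alone gives, had medians of 1.62, 1.47 and 1.31 at those sites. By the mean SD, the region was thus less variable than its chromosome over all sites and more variable at sites of partial methylation. The median SD at the latter differed little, with 9.61 points in the region and 9.50 on the rest of the chromosome. Sites where an animal had both cultures at or below 20% and another both at or above 80% numbered 1 in the region (0.0572%), 8 on the rest of the chromosome (0.0446%) and 334 over all sites (0.0398%). These values were described and not tested.

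The likeness of an animal's cultures was then split by locus. The excess was above 0 at 110 loci, with a sum of 737 points over their sites, and below 0 at 93 loci, with a sum of -305 points. The 5 loci with the largest excess held 32.4% of the sum above 0 and the 10 largest 48.7%. The loci were ranked by this value, so what follows is a description with no test. Without the first of them, the excess of the region was 0.217 points (exact permutation P = 0.00139, the smallest the pairings can give).

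The first locus lay at positions 27950722 to 27950725, between the POU5F1 and DDR1 sites, and held both strands of 2 CpGs at a mean coverage of 13.7 reads, with even coverage in all cultures at all 4 sites. Animals 4 and 5 had 63.5 and 74.5% in young and 72.0 and 63.5% in old cultures. The other 4 animals had at least 92.0% in every culture. At the site 27950722 (plus strand) alone, animals 4 and 5 had 29 and 43% in young and 38 and 25% in old cultures, while the others ran from 93 to 100%. On the opposite strand of this CpG, at 27950723, animals 4 and 5 had 25 and 55% in young and 50 and 29% in old cultures. The others ran from 75 to 100% there, so the gap between animals was found at both ages and on both strands of this CpG. These strands held 30.2 and 22.9 points of the locus's summed excess of 53.1 points. The gap thus lay at this CpG and not at the other CpG of the locus.

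The locus at 27770369 to 27770518 held 9 sites, among them the POU5F1 site named above. Animal 5 was the highest at both ages, with 68.9% in young and 85.4% in old cultures, and the other animals lay between 38.8 and 64.3%. A locus of 5 sites just before it, at 27770143 to 27770188, had animals 4 and 5 highest at both ages, with 43.0 and 43.2% in young and 47.6 and 51.6% in old cultures, against at most 40.0% in the others. At 27690400 to 27690493, between PRRC2A and POU5F1, 6 sites had 90, 91, 83.3, 55.7, 64.7 and 66.7% in the young cultures of animals 1 to 6 and 93.3, 86.5, 90, 66, 73.3 and 81% in the old ones. Animal 4 was the lowest at both ages there.

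A locus of 14 sites at 26989331 to 26989399 stood apart by its depth, with a mean coverage of 323 reads against 17.5 over the region. Its mean level was 28.6, 29.1, 30, 39.9, 39.8 and 43.9% in the young cultures of animals 1 to 6 and 33.1, 29.4, 21.3, 39.9, 39.3 and 34.8% in the old ones. The young and old cultures of animals 2, 4 and 5 lay within 1 point of each other. How reads came to gather at this locus was not tested, and without all sites over 100 reads the excess of the region was 0.240 points (exact permutation P = 0.00417). The longest of the 5 loci, 39 sites at 27332173 to 27332481, had low levels throughout, with 3.18 to 16.9%, and animal 4 was the lowest at both ages.

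The single site that was low in 1 animal and high in another at both ages lay at 28571283 (plus strand), in the stretch of framework genes. It is named here after its values were seen. Animal 5 had 100% at both ages and animals 1 and 3 had 0 at both ages. Animal 4 had 60% in its young and 38% in its old culture, animal 2 had 62 and 0%, and animal 6 had 20 and 0%. Coverage was 6 to 16 reads, and 0 such sites were left in the region with 10 or more reads throughout or without animal 5.

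Likeness was also computed for the stretches between landmark genes. From POU5F1 to GABBR1, the cultures of an animal were closer by 0.252 points (exact permutation P = 0.00556, adjusted P = 0.0243 over 5 stretches). Before PRRT1 they were closer by 0.269 points (exact permutation P = 0.00972, adjusted P = 0.0243). That stretch held 18.9% of the region's total excess. The deep locus at 26989331 to 26989399, which lies in it, alone held 10.4% of that total. The stretch was not tested without this locus. In the class III stretch from PRRT1 to PRRC2A the value was 0.0965 points (exact permutation P = 0.410, adjusted P = 0.410). The stretch from PRRC2A to POU5F1 had 0.527 points (exact permutation P = 0.0708, adjusted P = 0.118) over 145 sites. By gene order this stretch spans the class I entry BoLA and the class I-like genes MIC1 and MIC2. Differences between the stretches were not tested.

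**Figure D5:**
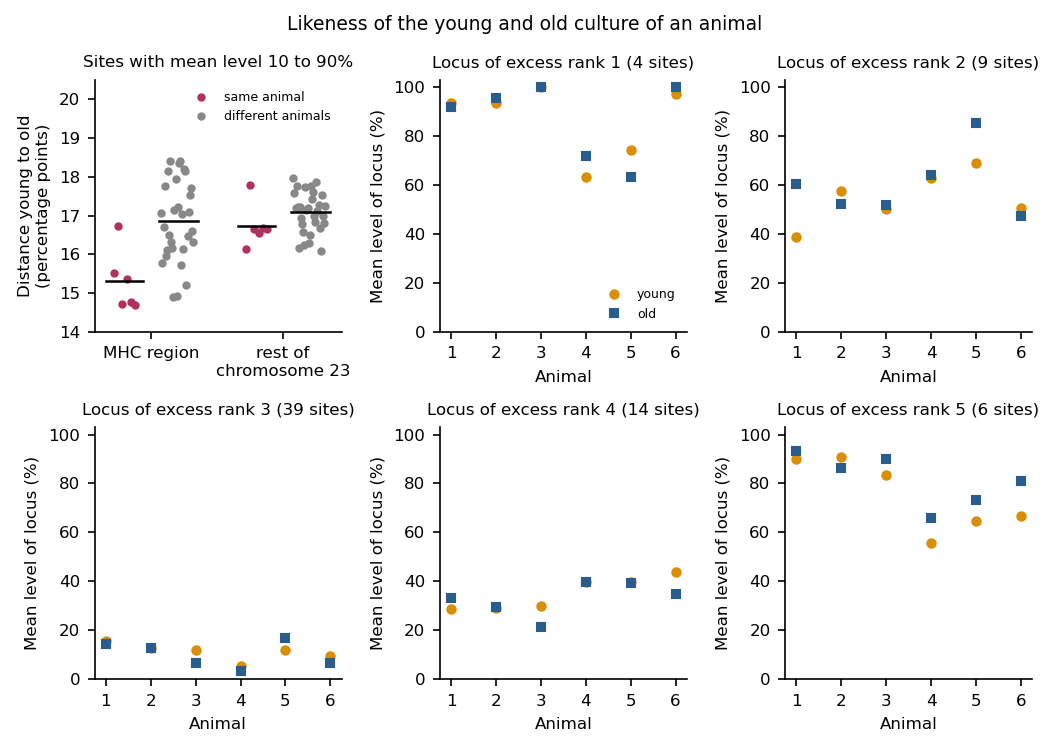
Distance between the young and the old culture of the same animal and of different animals (first panel, percentage points, sites with a mean level of 10 to 90%, bars are means), and mean methylation level (percent) of the young and old culture of each animal at the 5 loci with the largest excess. In the region the same-animal mean was 15.3 and the different-animal mean 16.9 points, and at the first locus animals 4 and 5 lie below the others at both ages.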

How the data were processed

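The authors trimmed RRBS reads of 12 cultures with Trim Galore 0.3.7, aligned them with Bismark 0.13.1 to bosTau8 and kept uniquely mapped reads (versions from the submitters' processing notes). The deposited methylation ratio is a fraction, C/(C + T) with 2 decimals, and counts every T as unmethylated. Genotypes of the animals were not analysed here. Coverage was deposited as a raw count of reads for each position on each strand. The authors' deposited p-value comes from the authors' paired comparison and is not adjusted. It was used only to find the smallest difference to which it applies, and the authors' own differences were not used. Genes and CpG islands were read from the authors' list of positions with P below 0.05.

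Sites were selected by coordinates, and the members, gene lists and tests were chosen with earlier results of these data known. Stretches between genes, loci and 3 settings were chosen after seeing the data. The methods' paired t-test was fitted at all 838705 sites, with a lowest coverage of 5 reads and a minimum difference of 10 points. Limma 3.58.1 on the ratios and a quasi-binomial logistic model on reads (dispersion not below 1), both with the animal as a block, were alternatives. Sites are not replicates, so means over sites were tested over the 6 animals, with an exact sign-flip test (64 patterns) or an exact test over 720 pairings. Depth limits each ratio to steps of 1 read, and reads are not independent molecules. Tests were first checked on 20000 simulated sites.

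The pairing comes from the animals. Deviations of the region's ratios from the mean of an age had a median correlation of 0.131 between the cultures of an animal (0.0488 to 0.206, 6 pairs) and of -0.0368 between animals (30 pairs).

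Named were all annotated sites of the authors' list in the region, up to 5 called sites per direction with 10 reads in every culture and 6 animals alike (1 qualified), loci with at least 3 called sites (none), up to 8 animal-specific sites at that coverage (none) and the lowest and highest windows of 250 kb. The other called sites, the 10 loci of largest excess and the animal-specific site were chosen after their values were seen. The RefSeq table of ARS-UCD2.0 gave gene order only.

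Scripts ran in R 4.3.3 and Python 3.11.15 (scipy 1.17.1, numpy 2.4.6).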

Additional observations from a re-analysis of the deposited data

Results flagged for a closer look

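In 79 sets of 6 values, the highest or lowest value was compared with the rest by Dixon's ratio, and 11 values stood apart. For normal values this flags about 1 set in 20 by chance. That rate does not hold for ratios of few reads that pile up at 0 or 100%. Where all other values are equal, any differing value is flagged, such as 6% from 16 reads at PRRT1. The 11 can therefore not be read as an excess. Animal 2 gave 7 of them. Its old culture had 6% at PRRT1 where the other old cultures had 0, 21% at PPP1R18 where the next had 6%, 90% at position 27347867 where the others had 100%, and 14% at 28690933 where the others had 0. Its young culture had 43% at 28690933 where the next had 12%, and 29% at 28690979 where the next had 12%. Animal 1 had 44% at position 26930486 in its old culture, with 64% as the next value, and 18% at the DDAH2 exon site in its young culture, with the others at 0. Animal 6 had 90% at GABBR1 in its old culture, with the others at 100%, and 74.2% in its young culture at the locus starting at 28614665, with 91.8% as the next value. Among the animals, the difference of the age effects, region minus rest of chromosome 23, was lowest in animal 2, at -1.35 points, with -0.588 as the next value. The cause of these single values was not tested.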

How the results depend on the processing

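Of 67 recomputed values, 49 were counted as the same, 4 lost a call, 3 gained a call, 11 moved and 0 reversed. For tested differences, the same means that direction and side of the P threshold were kept. Site counts and mean levels have no such threshold, and there the same allows some change of value. The 25 DMCs, for example, were counted as the same at 17 by the quasi-binomial model and at 36 with no minimum difference. The 49 are therefore not all results that kept a call. The 25 DMCs became 3 with at least 10 reads in every culture, 2 with a minimum difference of 25 points, 9 sites with the exact sign-flip test, 0 with Benjamini-Hochberg adjustment and 15 to 23 with an animal left out (15 without animal 4 and without animal 6). The mean level was 7.21% with at least 10 reads, 10.4% with a mean coverage of at least 10, 12.8% with merged strands, 9.91% without even-coverage sites, 44.5% at levels of 10 to 90%, 14.04% with pooled reads and 11.0 to 11.2% with an animal left out. Region minus rest in the age difference lost its call with at least 10 reads (-0.376), without even-coverage sites (-0.606, exact P = 0.0625), with pooled reads (-0.725, exact P = 0.156) and against all autosomes (-0.228). It ran from -0.579 to -0.336 with an animal left out, where 5 animals cannot reach P below 0.0625. The age difference of the region then ran from 0.129 to 0.305. Region minus rest in the likeness of an animal's cultures gained a call with a mean coverage of at least 10 (0.218, exact P = 0.0153), with merged strands (0.189, exact P = 0.0417) and at levels of 10 to 90% (1.22). With an animal left out it ran from 0.120 to 0.202 (exact P from 0.025 to 0.267), and the likeness in the region itself from 0.223 to 0.281. The animal-specific site was lost with at least 10 reads (0 left) and without animal 5, so that count was 0 to 1. Without the pairing (no replicate block), 23 sites were DMCs, and exact permutation P over every equal parting of the cultures was 0.307 for the age difference and 0.0152 for region minus rest. At the 25 named sites no direction changed in 150 omissions of an animal. A site that passes the paired t-test cannot change its direction in this way, so this is no check of the sites. The cause of these changes was not tested, other than that stricter coverage and omitted animals leave fewer sites or animals.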
